A study of Mus musculus with 9 samples.

Results

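The subject is 10 mouse genes known to be switched on by low oxygen: Ndrg1, P4ha1, P4ha2, Vegfa, Bnip3, Egln1, Egln3, Adm, Car9 and Ankrd37. They were measured in 9 T-cell lymphomas on a microarray. The array annotation gives them 19 probe sets, out of 45101 on the array, and all 19 were kept. The genes were chosen by name, and they are 10 of the 18194 genes that single-gene probe sets of the array name. Every tumour came from G3 Atm-/-TERT-ER mice, which lack the DNA break kinase Atm and carry a telomerase fused to an oestrogen receptor that 4-OHT, a tamoxifen metabolite, switches on. The tumours were grown in SCID mice, which have no mature B or T cells but keep their own vessels, macrophages and stroma. The ALT group holds 5 passage 4 tumours kept on vehicle, which came to maintain telomeres by alternative lengthening (ALT). The telomerase group holds 3 passage 4 tumours kept on 4-OHT. A single parental tumour, labelled as telomerase-positive, has no passage number. The study drew ALT and telomerase tumours from the same parental lines, which were raised on 4-OHT. Animal ages, the number of lines and whether each tumour had its own host are not stated, so p-values here cover the spread among these arrays, which may be technical. Vehicle and ALT always go together, so the drug, active telomerase and ALT cannot be told apart.

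In cells with enough oxygen, the prolyl hydroxylases encoded by the Egln genes mark the alpha subunits of hypoxia-inducible factor (HIF), and the Vhl ubiquitin ligase then has them destroyed. When oxygen falls, the alpha subunit enters the nucleus, pairs with Arnt and binds short DNA elements that hold the core ACGTG or GCGTG. The products of its targets bring in vessels (Vegfa, Adm), adjust pH (Car9), remove mitochondria (Bnip3), modify collagen (P4ha1, P4ha2) and feed back on the factor itself (Egln1, Egln3). In solid lymphomas such genes are known as markers of poorly perfused regions, and several also respond to other signals.

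The promoters of 5 of the genes are shown because they hold the core and because their genes are the ones compared most closely below. Each is 300 bases of RefSeq sequence of GRCm38.p6, from 250 bases before the annotated start to 50 after it, written on the strand of the gene. Capitals mark every match to ACGTG or GCGTG on either strand, so CACGT and CACGC are matches on the opposite strand. A CACGTG counts as a match on each strand, and neighbouring matches may overlap. P4ha2 lies on the plus strand at chr11:54100674-54100973, Car9 on the plus strand at chr4:43506776-43507075, Bnip3 on the minus strand at chr7:138909457-138909756, P4ha1 on the plus strand at chr10:59323046-59323345 and Egln1 on the minus strand at chr8:124949205-124949504.
P4ha2: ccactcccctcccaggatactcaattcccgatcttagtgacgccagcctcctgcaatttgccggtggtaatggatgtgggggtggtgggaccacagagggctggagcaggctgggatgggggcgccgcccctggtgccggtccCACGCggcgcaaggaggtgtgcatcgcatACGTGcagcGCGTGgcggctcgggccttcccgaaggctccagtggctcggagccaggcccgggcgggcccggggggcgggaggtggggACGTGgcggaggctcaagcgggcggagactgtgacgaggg
Car9: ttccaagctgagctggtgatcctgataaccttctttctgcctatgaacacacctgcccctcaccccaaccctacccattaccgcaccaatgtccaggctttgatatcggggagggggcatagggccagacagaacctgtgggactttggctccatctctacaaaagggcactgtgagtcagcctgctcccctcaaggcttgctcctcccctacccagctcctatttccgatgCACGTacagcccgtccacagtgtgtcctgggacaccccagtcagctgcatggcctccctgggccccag
Bnip3: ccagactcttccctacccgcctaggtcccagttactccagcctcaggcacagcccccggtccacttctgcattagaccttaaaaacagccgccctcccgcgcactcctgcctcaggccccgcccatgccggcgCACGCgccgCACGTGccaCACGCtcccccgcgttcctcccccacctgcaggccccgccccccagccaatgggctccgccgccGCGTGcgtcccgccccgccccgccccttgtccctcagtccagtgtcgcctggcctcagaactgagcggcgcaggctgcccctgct
P4ha1: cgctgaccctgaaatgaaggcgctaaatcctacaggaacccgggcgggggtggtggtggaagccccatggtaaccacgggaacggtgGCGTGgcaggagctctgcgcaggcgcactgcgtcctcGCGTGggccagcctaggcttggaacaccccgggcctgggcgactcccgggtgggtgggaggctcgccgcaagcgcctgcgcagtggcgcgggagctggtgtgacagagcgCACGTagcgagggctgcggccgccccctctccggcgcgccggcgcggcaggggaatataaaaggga
Egln1: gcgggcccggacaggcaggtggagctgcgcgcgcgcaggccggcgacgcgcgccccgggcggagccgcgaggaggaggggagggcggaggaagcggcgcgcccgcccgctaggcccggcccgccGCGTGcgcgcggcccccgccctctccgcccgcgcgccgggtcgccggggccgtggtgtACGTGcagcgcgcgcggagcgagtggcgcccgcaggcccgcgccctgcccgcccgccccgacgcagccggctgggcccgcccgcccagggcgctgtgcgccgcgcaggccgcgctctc

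RefSeq promoters were matched for 9 of the 10 genes, as 10 windows, because Vegfa has 2 annotated starts. At least 1 match was present in 9 of the 10 windows, against 43.8% of all 32851 promoter windows of the same length. The exception was the window at the upstream Vegfa start, so Vegfa held matches only at its downstream start. Bnip3 held 5 matches, P4ha2 and Ankrd37 held 4 each, P4ha1 held 3, and Car9 and Egln3 held 1 each. Of all windows 3.86% held 4 or more. The match in Car9 begins at position -18 from the start, and those in P4ha2 begin at positions -107, -78, -69 and 11. Ndrg1 has no window among them. Bnip3, which was higher in ALT tumours, and P4ha2 and Car9, which were lower, all held matches, and a match is a description of the letters, not a site in use.

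The arrays also differed in RNA that is foreign to a lymphoma. Transcripts of pancreatic acinar cells, which make digestive enzymes, summed to between 70246 and 162734 over 11 markers in ALT 1, ALT 2, ALT 5 and telomerase 3, and to between 258 and 754 in the other 5 arrays. Skeletal muscle markers summed to 225 to 333 in ALT tumours, against 8081, 574 and 266 in telomerase tumours 1 to 3 and 11835 in the parental tumour. Summed T-cell markers, which include the CD3 chains, lay between 27424 and 34288 in ALT tumours and between 36044 and 38030 in telomerase tumours, so the labelled cell type was well represented on every array. The gap followed Cd3d, Cd3e and Cd3g, with Cd3g at 4108 to 5848 in ALT and 8109 to 9633 in telomerase tumours. Cd2 went the other way, at 459 to 724 against 273 to 366. Cd5, Cd247, Cd28, Ptprc and Thy1 overlapped between the groups. Endothelial markers summed to 626 to 803 in ALT tumours and 733 to 1073 in telomerase tumours. In bulk RNA like this, fewer cells of a type and less RNA per cell cannot be told apart. How far these differences bear on the hypoxia-induced genes was not tested, but values within the arrays with and without pancreatic transcripts are given beside the calls they end. The arrays with them are 3 ALT and 1 telomerase, and that lone array is assumed to vary like the others; those without are 2 ALT and 2 telomerase. The median signal of an array ranged from 39.8 to 43.8, and detection calls were not used here.

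The comparison of ALT with telomerase tumours asked which of these genes differ between tumours that keep their telomeres in different ways. The genes did not move together. Of the 10, Ndrg1, P4ha2 and Car9 were lower in ALT tumours and Bnip3 was higher, while the other 6 did not pass the test. The test was limma's linear model on log2(signal + 16), fitted to 12361 genes with 1 probe set each, at a Benjamini-Hochberg adjusted p of 0.05. In that fit 17.5% of all tested genes were called, 7.47% higher and 10% lower. Values of the 5 ALT and 3 telomerase arrays did not overlap in 5 of the 10 genes, against 24.7% of all tested genes. The median log2 change of the 10 was 0.01, against -0.01 over all tested genes. Fitted one by one among 22367 probe sets, of which 20.1% were called, 2 of the 19 probe sets were higher, against 7.69% of all, and 7 lower, against 12.4%. Groups did not overlap in 10 of the 19, against 26.3% of all. All 10 genes and all 19 probe sets were above the limit on low signal by their mean over all arrays.

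**Figure D1:**
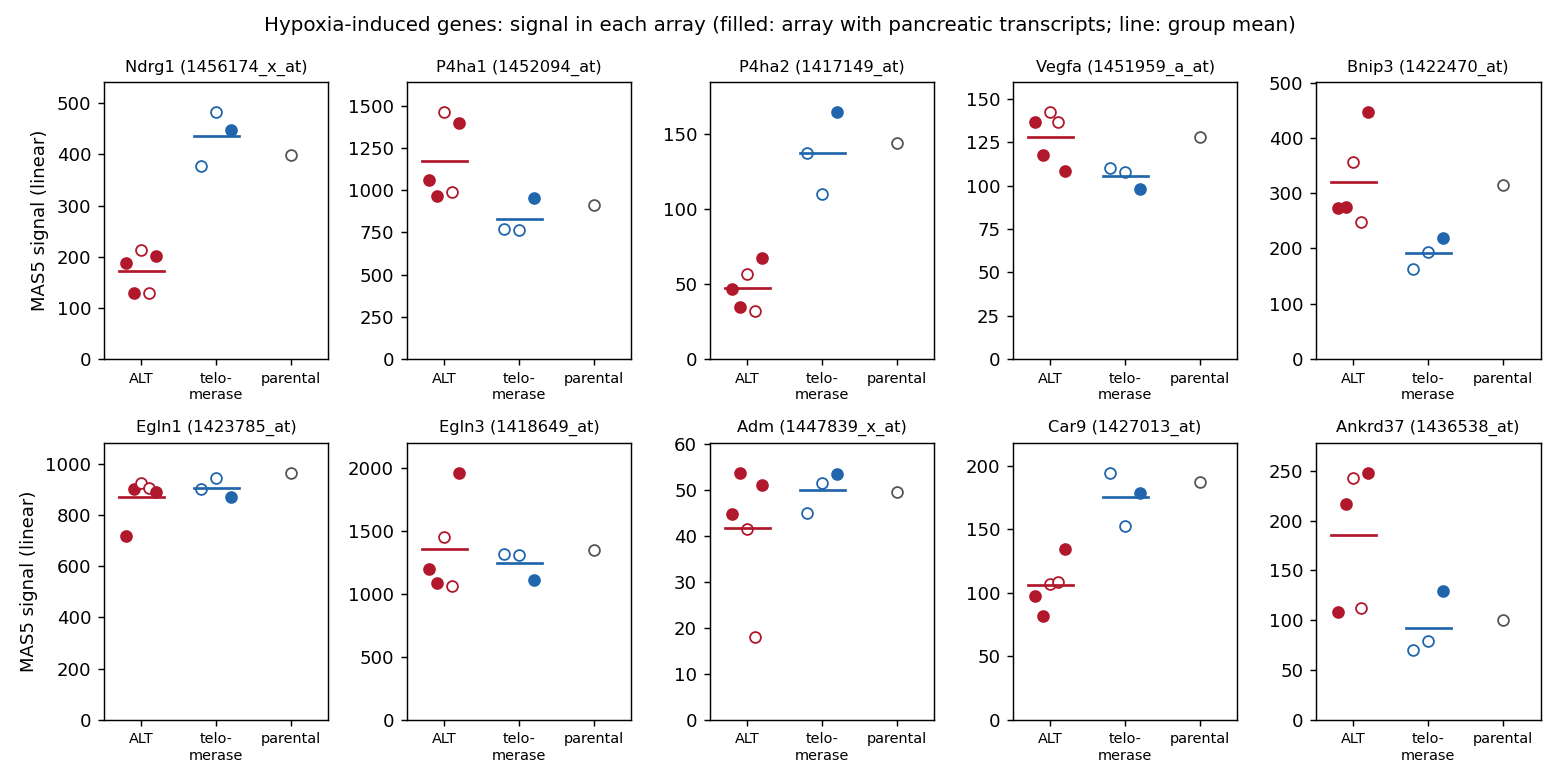
MAS5 signal on a linear axis from 0 for the probe set used for each gene, with a point per array and a line at the group mean; filled points are arrays with pancreatic transcripts. Ndrg1, P4ha2 and Car9 lie lower in all 5 ALT tumours than in all 3 telomerase tumours, and Bnip3 and P4ha1 lie higher.

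**Figure D2:**
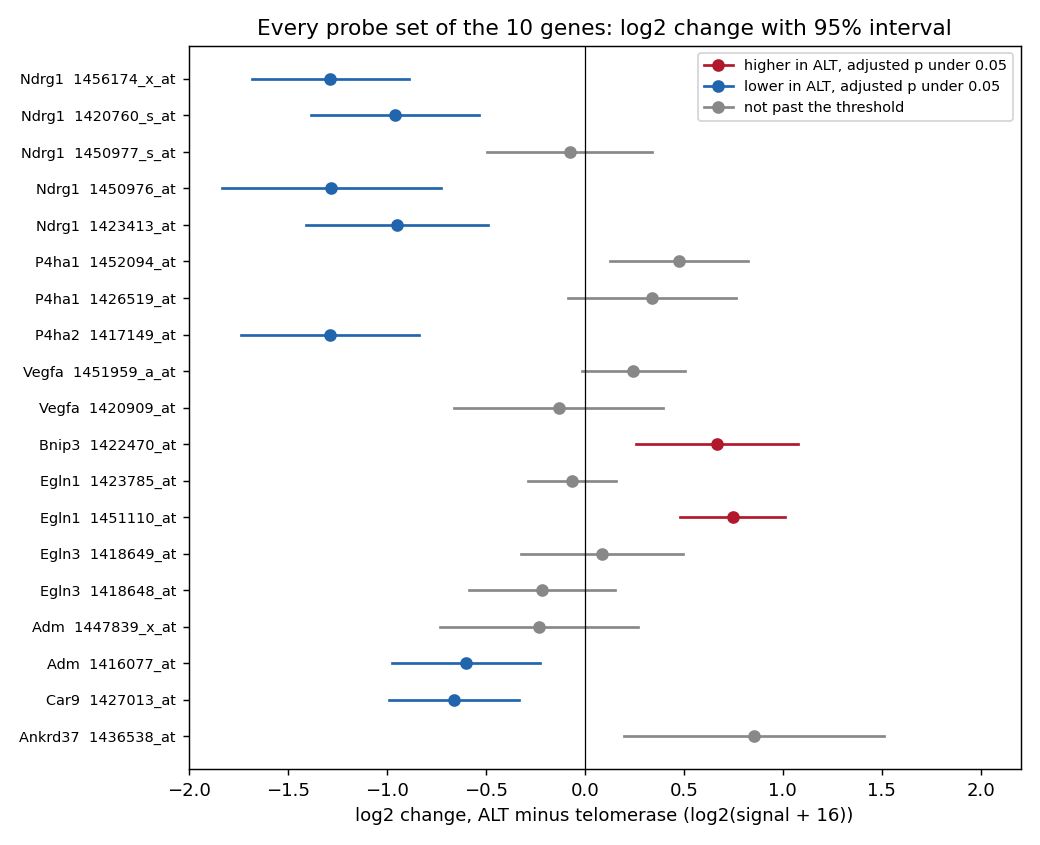
The log2 change (ALT minus telomerase) of each of the 19 probe sets with its 95% interval from limma. Ndrg1 probe sets 1456174_x_at, 1420760_s_at and 1450976_at are lower in ALT tumours, 1423413_at is too but was kept only through its telomerase values, and the probe sets of Egln1 and of Adm differ from each other.

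Ndrg1 encodes a stress-responsive protein that restrains growth in many tumour types. Its brightest probe set, 1456174_x_at, gave signals of 188, 128, 214, 130 and 201 in ALT tumours 1 to 5, against 377, 483 and 447 in telomerase tumours 1 to 3. The lowest telomerase value lay well above the highest ALT value. The means were 172 ± 40.3 in ALT tumours (SD, n = 5) and 435 ± 54.1 in telomerase tumours (SD, n = 3), a log2 change of -1.28 with a limma adjusted p of 0.00124. Probe sets 1420760_s_at and 1450976_at fell as well, with log2 changes of -0.96 and -1.28 and adjusted p-values of 0.00625 and 0.00553 over all probe sets. Neither passed within arrays with pancreatic transcripts (adjusted p = 0.0888 and 0.0998). Probe set 1423413_at averaged 20.4 in ALT tumours, under the limit on low signal of 24.2, and 53.8 in telomerase tumours. It was kept through its telomerase values, so its call (log2 change -0.95, adjusted p = 0.0097) does not add to the others; the call was lost without telomerase 2 (0.0509) and within arrays without (0.073) and with pancreatic transcripts (0.176). The fifth, 1450977_s_at, had 76.2 ± 21.3 in ALT and 79.1 ± 6.75 in telomerase tumours, and its groups overlapped (log2 change -0.08, 95% interval -0.49 to 0.34). Suffixes _s_at and _x_at mark probe sets whose probes can match more than 1 transcript or other sequences. Across arrays without pancreatic transcripts the Ndrg1 change was -1.27 (adjusted p = 0.0292), and across arrays with them it was -1.32 (adjusted p = 0.0558).

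The collagen prolyl 4-hydroxylases P4ha1 and P4ha2 are alternative catalytic subunits of the enzyme that hydroxylates collagen in the endoplasmic reticulum, and only P4ha2 passed the test. The difference between their changes was not tested. P4ha2 had signals of 46.9, 35, 56.8, 32.0 and 67.5 in ALT tumours 1 to 5, against 137, 110 and 165 in telomerase tumours 1 to 3. No ALT value reached the lowest telomerase value. With means of 47.6 ± 14.8 in ALT and 137 ± 27.3 in telomerase tumours, its log2 change was -1.28 (adjusted p = 0.0026). P4ha2 kept that size within arrays without pancreatic transcripts, at -1.23 (adjusted p = 0.0345), and had -1.49 within arrays with them (adjusted p = 0.0616).

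P4ha1 had signals of 1057, 964, 1462, 987 and 1395 in ALT tumours 1 to 5, against 769, 766 and 954 in telomerase tumours 1 to 3. The groups did not overlap, but ALT 2 stood only just above telomerase 3. The log2 change of 0.48 (95% interval 0.12 to 0.83) did not pass (adjusted p = 0.0652). The dimmer P4ha1 probe set 1426519_at had a log2 change of 0.34 (95% interval -0.08 to 0.76), with overlapping groups. P4hb, the partner that both subunits need, averaged 3564 in ALT and 2944 in telomerase tumours (log2 change 0.28, adjusted p = 0.0606). The third catalytic subunit, P4ha3, was below the limit on low signal.

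Car9, a carbonic anhydrase on the cell surface that helps cells export acid, fell. Its signals were 97.3, 82.0, 107, 109 and 135 in ALT tumours 1 to 5, against 194, 153 and 179 in telomerase tumours 1 to 3. All ALT values lay below all telomerase values, with ALT 5 closest. The means were 106 ± 19.3 in ALT and 175 ± 21.1 in telomerase tumours, for a log2 change of -0.66 (adjusted p = 0.0141). Without telomerase 1, which had the most muscle transcripts of the 3, the change was -0.59 and the call was lost (adjusted p = 0.0738). It was also lost within arrays without pancreatic transcripts (-0.61, adjusted p = 0.0944) and with them (-0.72, adjusted p = 0.264). Car12, another surface carbonic anhydrase of the HIF response, had 322 in ALT and 419 in telomerase tumours on average (log2 change -0.37, adjusted p = 0.102).

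Among the secreted factors, Vegfa, the main growth factor for vessels, did not pass. Its brighter probe set 1451959_a_at gave 136, 117, 142, 136 and 109 in ALT tumours 1 to 5, against 110, 108 and 97.7 in telomerase tumours 1 to 3. Only ALT 5 fell within the telomerase range, and the log2 change was 0.25 (95% interval -0.02 to 0.51, adjusted p = 0.187). The other Vegfa probe set, 1420909_at, ran from 52.7 to 112 in ALT tumours and from 63.99 to 118 in telomerase tumours, with a log2 change of -0.13 (95% interval -0.66 to 0.40).

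Adm encodes adrenomedullin, a peptide that widens vessels. Its probe sets 1447839_x_at and 1416077_at averaged 45.3 and 37.0 over all arrays, near the array medians. In ALT tumours 1416077_at averaged 26.8, close to the limit on low signal of 24.2, and ALT 1 lay under that limit. The first gave 44.6, 53.7, 41.3, 18.0 and 51.1 in ALT tumours 1 to 5, against 44.8, 51.4 and 53.3 in telomerase tumours 1 to 3 (log2 change -0.23, 95% interval -0.74 to 0.28). The groups overlapped and ALT 4 stood below all other arrays. The second gave 21.3, 28.9, 30.1, 26.9 and 26.9 in ALT tumours, against 46.4, 37.3 and 65.6 in telomerase tumours, with no overlap. That probe set was called lower in the fit over probe sets (log2 change -0.60, adjusted p = 0.0298). Its call was lost without ALT 1 (adjusted p = 0.0618), without telomerase 1 (0.0805) and without telomerase 3 (log2 change -0.43, adjusted p = 0.129). It was also lost within arrays without pancreatic transcripts (-0.37, adjusted p = 0.341) and with them (-0.97, adjusted p = 0.113).

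Bnip3 encodes a mitochondrial outer membrane protein that directs mitochondria to autophagy. It gave 273, 274, 355, 248 and 447 in ALT tumours 1 to 5, against 164, 193 and 220 in telomerase tumours 1 to 3. Every ALT value was above every telomerase value, and the nearest were ALT 4 and telomerase 3. The means were 320 ± 81.7 in ALT and 192 ± 28.1 in telomerase tumours, a log2 change of 0.67 (95% interval 0.25 to 1.08, adjusted p = 0.0348). The call was lost when single arrays were left out: its adjusted p was 0.0673 without ALT 3, 0.146 without telomerase 1 and 0.0938 without telomerase 2. Within arrays without pancreatic transcripts the change was 0.69 (adjusted p = 0.0976), and within arrays with them 0.52 (adjusted p = 0.438). It was 0.59 with the acinar sum as a covariate (adjusted p = 0.0652) and 0.50 with the parental array counted as telomerase (adjusted p = 0.0977). The parental tumour, at 315, lay inside the ALT range.

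Ankrd37, a small ankyrin repeat protein whose mRNA is induced by HIF, had the widest spread of the 10. Its signals were 109, 217, 243, 113 and 248 in ALT tumours 1 to 5, against 70.0, 78.9 and 129 in telomerase tumours 1 to 3. ALT 2, 3 and 5 lay far above ALT 1 and 4, and telomerase 3 lay above ALT 1 and 4. The log2 change was 0.85, with a 95% interval from 0.18 to 1.52, and did not pass (adjusted p = 0.0796), though it passed without ALT 1 (0.0470) or ALT 4 (0.0449). Its SD within groups was 0.50 on the log2 scale, larger than in 94.8% of tested genes.

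The oxygen sensors Egln1 and Egln3 encode the prolyl hydroxylases PHD2 and PHD3, and Egln1 gave 2 different answers. Probe set 1451110_at read 649, 795, 862, 710 and 854 in ALT tumours 1 to 5, against 418, 508 and 435 in telomerase tumours 1 to 3. All ALT values were higher, and the log2 change was 0.75 (95% interval 0.48 to 1.01, adjusted p = 0.00185). The brighter probe set 1423785_at read 717, 903, 927, 907 and 891 in ALT tumours, against 903, 945 and 871 in telomerase tumours. Here the groups overlapped, with a log2 change of -0.07 (95% interval -0.29 to 0.16). The array annotation lists the same accession for both, and where each lies on the transcript was not analysed here. Within arrays with pancreatic transcripts the change of 1451110_at was 0.78 and did not pass (adjusted p = 0.0929). When both probe sets were averaged, Egln1 had a log2 change of 0.34 and passed (adjusted p = 0.046).

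Egln1 lies on chromosome 8, where 122 of 656 tested genes were higher in ALT tumours and 36 lower. Of the 20 tested genes nearest to it, 10 on each side, 10 were higher and 0 lower, at a median log2 change of 0.38. Its nearest neighbours on either side, Exoc8 and Tsnax, had log2 changes of 0.40 and 0.12 and did not pass. Ankrd37, also on chromosome 8, had 2 higher and 1 lower among its 20 neighbours (median 0.14). Around P4ha2 on chromosome 11, 0 neighbours were higher and 6 lower (median -0.14). Over that chromosome 61 of 1047 tested genes were higher and 95 lower, and over all tested genes 7.47% were higher and 10% lower. Around Ndrg1, 2 were higher and 1 lower (median 0.10), and around Bnip3 and Car9 at most 1 passed in each direction.

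**Figure D3:**
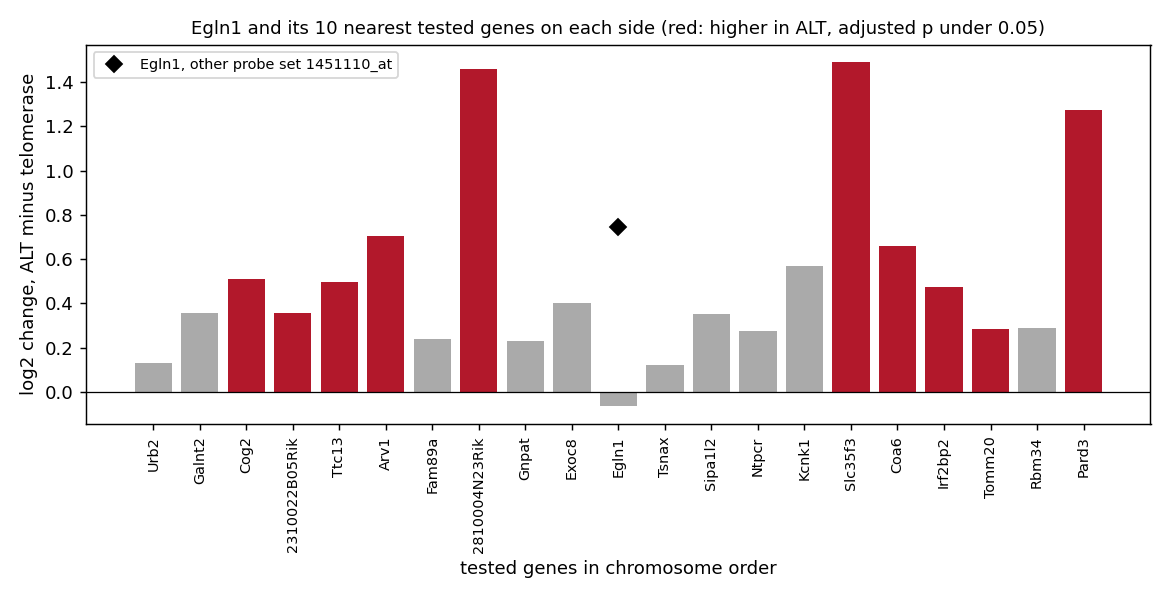
The log2 change (ALT minus telomerase) of Egln1 and the 10 nearest tested genes on each side in chromosome order, red where higher at an adjusted p under 0.05; the diamond is Egln1 by its other probe set. All 20 neighbours have positive values and 10 pass, while the brighter Egln1 probe set is at -0.07 and the other at 0.75.

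Egln3 did not pass either. Its probe set 1418649_at read 1201, 1087, 1457, 1066 and 1965 in ALT tumours 1 to 5, against 1316, 1312 and 1109 in telomerase tumours 1 to 3. The ALT values lay on both sides of the telomerase values, with a log2 change of 0.09 (95% interval -0.33 to 0.50). Probe set 1418648_at had a log2 change of -0.22 (95% interval -0.59 to 0.15).

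Upstream of these genes, transcripts of the alpha subunits showed no call. Hif1a averaged 2584 ± 395 in ALT and 2507 ± 316 in telomerase tumours (log2 change 0.04, adjusted p = 0.874). Epas1, which encodes the other main alpha subunit, averaged 414 ± 45.6 in ALT and 363 ± 74.8 in telomerase tumours (log2 change 0.19, adjusted p = 0.387), and Hif3a had a log2 change of -0.13. HIF alpha is controlled mainly as a protein, which these arrays do not measure. Arnt, the shared partner, had 201, 197, 148, 189 and 178 in ALT tumours 1 to 5, against 307, 253 and 280 in telomerase tumours 1 to 3. The Arnt groups did not overlap, and the gene fell (log2 change -0.58, adjusted p = 0.00974); without telomerase 1 its adjusted p was 0.0574, and it did not pass within arrays without pancreatic transcripts (-0.69, adjusted p = 0.0764) or with them (-0.51, adjusted p = 0.26). A second Arnt probe set, 1419996_s_at, fell by 0.55 on the log2 scale, while 2 others did not pass, the fifth was below the limit on low signal, and the mean of all 5 was at -0.20 (adjusted p = 0.285).

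Of the 17 HIF subunits and regulators tested, 0 were higher and 2 lower, against 7.47% and 10% of all tested genes. Their median log2 change was 0.11. The other that fell was Siah2, a ubiquitin ligase that degrades Egln proteins, with a mean of 90.7 ± 23.3 in ALT and 147 ± 19.2 in telomerase tumours (log2 change -0.63, adjusted p = 0.0404). Its second probe set, 1448171_at, had a log2 change of 0.31 and did not pass. Among the inhibitors, Vhl, Egln2 and Hif1an had log2 changes of 0.17, 0.18 and 0.12. Eloc, Elob, Cul2 and Rbx1, the partners of Vhl in its ligase, had 0.08, -0.16, 0.29 and 0.11. The coactivators Ep300 and Crebbp had 0.19 and 0.21, Arnt2 had 0.16, Siah1a -0.24 and Cited2, which competes for the coactivators, 0.10. None of these 12 passed (adjusted p from 0.142 to 0.667).

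A list of 30 other hypoxia-induced genes was set beside the 10. Of its 26 tested, 2 were higher and 2 lower, which is 4 of 26 against 17.5% of all genes, and the median log2 change was -0.04. Stc2, a secreted glycoprotein induced by stress, averaged 320 ± 49.0 in ALT and 205 ± 26.2 in telomerase tumours (log2 change 0.60, adjusted p = 0.0161), and a second probe set, 1419503_at, rose by 1.02, while the third, 1445186_at, had a log2 change of 0.31 and did not pass. Higd1a, a mitochondrial protein, rose by 0.30 (adjusted p = 0.0475), but its other probe sets 1416481_s_at and 1448359_a_at had log2 changes of -0.39 and -0.20. Ldha, which makes lactate, fell by 0.27 (adjusted p = 0.0118), with 9739 to 11035 in ALT and 12089 to 13171 in telomerase tumours. Kdm4b, an oxygen-dependent histone demethylase, fell by 0.53 (adjusted p = 0.0365) although ALT 2, at 184, lay above telomerase 2, at 180. The glucose transporter Slc2a1 had a log2 change of 0.21, the glycolytic enzymes Hk2 and Pgk1 had -0.21 and -0.05, and Pdk1, which holds pyruvate back from mitochondria, had -0.09.

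On the receiving side, 1 of 12 tested ligands and receptors of the VEGF and adrenomedullin systems passed, against 17.5% of all tested genes. Ramp1, which turns the receptor Calcrl into a receptor for the related peptide CGRP, had 1139, 1122, 795, 1292 and 919 in ALT tumours 1 to 5, against 257, 320 and 569 in telomerase tumours 1 to 3. ALT values were all higher, for a log2 change of 1.49 (adjusted p = 0.00253); telomerase 3, with pancreatic transcripts, was the highest of its group, and within arrays with such transcripts the change was 0.87 (adjusted p = 0.0608). Its other probe sets, both dimmer, had log2 changes of -0.04 and 0.56 and did not pass. Ramp2, which gives Calcrl its affinity for adrenomedullin, averaged 177 ± 70.9 in ALT and 93.4 ± 26.2 in telomerase tumours without overlap (log2 change 0.78, adjusted p = 0.0694). Calcrl had 0.01, and the VEGF receptors Flt1 and Kdr had 0.01 and -0.10. Of 9 tested paralogues and partners of the 10 genes, such as Ndrg2 and Ndrg3, 0 passed the limma test, against 17.5% of all tested genes (unadjusted p under 0.05 in 2).

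Most of these calls on single list genes rested on few arrays. Stc2 lost its call without telomerase 1 (adjusted p = 0.0831) and Ldha without telomerase 2 (0.0563). Higd1a lost it without ALT 1, 3 or 5 or any 1 telomerase array, at an adjusted p of up to 0.181. Kdm4b lost it without ALT 1, 3, 4 or 5, telomerase 1 or telomerase 3, at up to 0.163, and Siah2 without ALT 1, 2 or 5 or any 1 telomerase array, at up to 0.146. Within arrays without and with pancreatic transcripts none of these 5 passed: Stc2 had log2 changes of 0.73 and 0.42 (adjusted p = 0.0725 and 0.405), Ldha -0.29 and -0.21 (0.0805 and 0.424) and Higd1a 0.25 and 0.31 (0.278 and 0.378). Kdm4b had -0.48 and -0.65 (adjusted p = 0.252 and 0.192), and Siah2 -0.30 and -0.86 (0.377 and 0.123). Other processing also ended calls of the limma test. Siah2 lost its call with no low-signal filter (adjusted p = 0.0602), quantile normalisation (0.0653) or median centring (0.0515). Kdm4b lost it with no filter (0.0532) or quantile normalisation (0.0558). Without an intensity trend Ldha (0.0714) and Higd1a (0.0894) did not pass. With the replicate block Ldha, Higd1a, Kdm4b, Siah2 and Arnt did not pass, while Stc2 did (0.0325). Ramp1 stayed past the threshold whichever single array was left out.

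**Figure D4:**
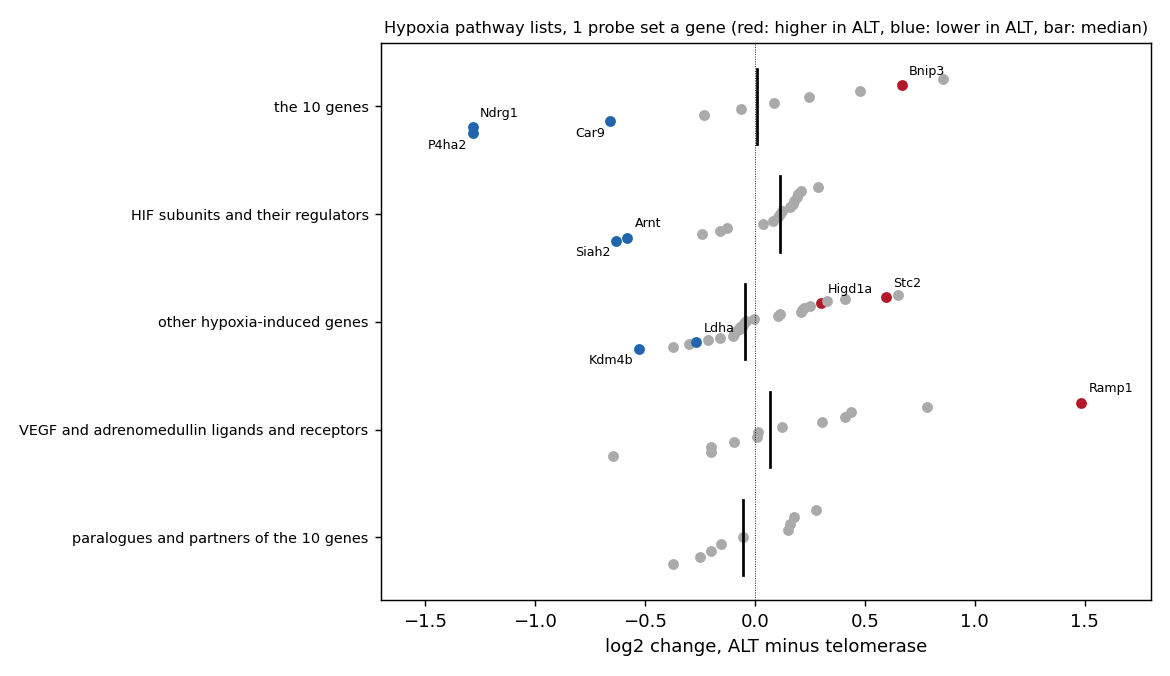
The log2 change (ALT minus telomerase) of every tested gene by list, coloured where it passed an adjusted p of 0.05, with a bar at the list's median. Medians lie between -0.06 and 0.11, and Ndrg1 and P4ha2 at -1.28 and Ramp1 at 1.49 stand farthest out.

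Within the ALT group the 10 genes often shared an order of tumours. ALT 3 and ALT 5 were the highest pair of the 5 in Ndrg1, P4ha1, P4ha2, Bnip3, Egln3 and Ankrd37, 6 of the 10, whether the gene was lower or higher than in telomerase tumours. Across all tested genes the same pair was on top in 10.8%. ALT 5 exceeded the ALT mean by 0.57 on the log2 scale in Egln3, 0.49 in Bnip3, 0.42 in P4ha2 and 0.32 in Car9. ALT 4 was at -0.37 in P4ha2, -0.34 in Ndrg1 and -0.31 in Bnip3. Vegfa went another way by its brighter probe set 1451959_a_at, with ALT 5 at -0.21. These orders use 1 probe set for each gene, and other probe sets can differ. In 1420909_at of Vegfa and 1451110_at of Egln1, ALT 3 and ALT 5 were the highest pair. In 1450977_s_at and 1423413_at of Ndrg1 and 1416077_at of Adm, another pair was.

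The pair recurred in the list of other hypoxia-induced genes. ALT 3 and ALT 5 were on top in 10 of its 26 tested genes, or 38.5%, namely Bhlhe40, Ero1a, Gbe1, Hk2, Lox, Mxi1, Pgk1, Plod2, Slc2a1 and Tpi1. Among the HIF subunits and regulators it was 1 of 17, among the VEGF and adrenomedullin genes 3 of 12 and among the paralogues and partners 1 of 9. Of the pair, ALT 5 carried pancreatic transcripts and ALT 3 did not. Sums of macrophage and fibroblast markers were also highest in these 2 tumours, and lowest in ALT 1. Macrophage markers summed to 9676 in ALT 5 and 9025 in ALT 3, against 6289 to 7819 in the other 3. Fibroblast markers summed to 7783 and 7349, against 4576 to 5908. Other host lists had other orders. The endothelial sum was highest in ALT 3 (803), but ALT 5 (691) lay below ALT 2 (765) and ALT 4 (705). Adipocyte sums in ALT 3 and ALT 5 (1418 and 1468) lay below ALT 1 (1753) and ALT 4 (1980), with ALT 2 lowest (1288). The macrophage sum followed Lyz2, a lysozyme, at 5751 in ALT 3 and 5535 in ALT 5 against 2572 to 3258 in the other 3, while the macrophage complement genes C1qa, C1qb and C1qc were lowest in ALT 3. The fibroblast sum followed the collagens Col1a2 and Col3a1, while Pdgfrb, a receptor on stromal cells, was lowest in ALT 3 and ALT 5 (1775 and 1994, against 2225 to 3104) and Fbln2 was lowest in ALT 5. All 8 fibroblast markers and 9 of 10 macrophage markers were above the limit on low signal, and their part in the order was not tested. This order was seen in the data before it was counted, and it has no test.

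**Figure D5:**
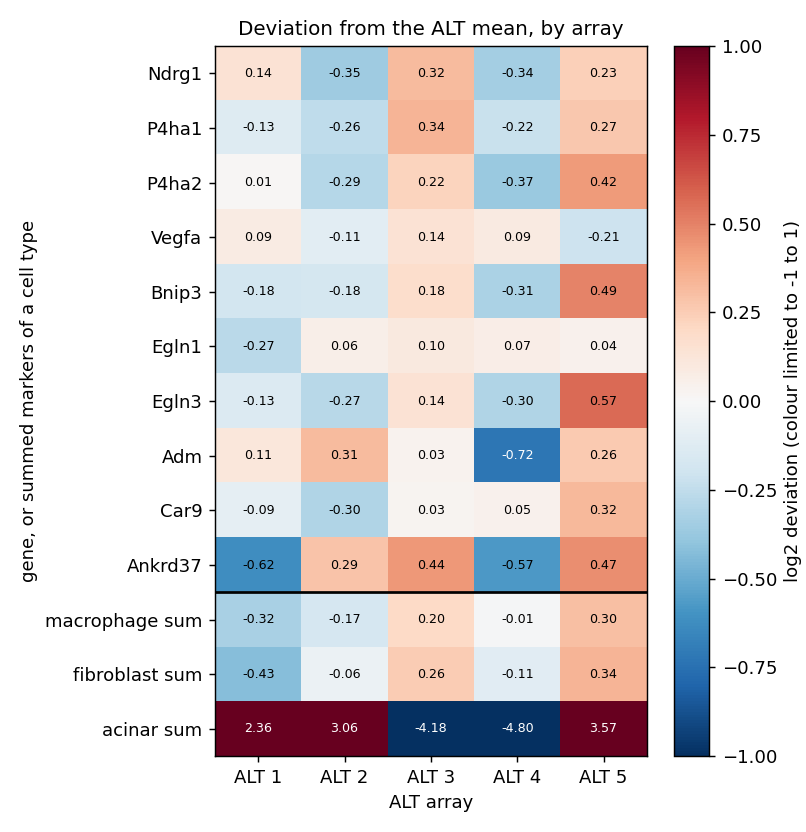
Deviation of each ALT array from the mean of the 5 on the log2 scale, for the 10 genes and for the summed markers of 3 cell types, with values printed and the colour limited to -1 and 1. ALT 3 and ALT 5 are positive in most genes and in the macrophage and fibroblast sums, while the acinar sum splits the arrays differently.

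The parental tumour lay nearer to the telomerase mean than to the ALT mean in 7 of the 10 genes and in 15 of the 19 probe sets, on the log2 scale. The same share was not counted over all tested genes, so these counts are not read as a trait of the 10. It had 398 for Ndrg1, 144 for P4ha2 and 187 for Car9, values inside the telomerase range for all 3. For probe set 1451110_at of Egln1 it had 424, also inside that range. It was nearer to the ALT mean for Bnip3, Egln3 and Vegfa. With no replicate, its spread is unknown.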

How the data were processed

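RNA from 9 mouse T-cell lymphomas was measured on 1-colour Affymetrix arrays, a sample per array. The deposited values are linear signal intensity per probe set, made with MAS5 per the submitters' processing notes, with no version given. Their scaling is not stated in the sources used here. Array medians ran from 39.8 to 43.8, detection calls were not used here, and no arrays held identical values. The number of arrays limits the precision.

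Probe sets were named through the platform annotation, which can be old: 34958 name 1 gene, 932 name several and 9211 name none, and 34754 of the first were found in RefSeq by gene ID. For each gene the probe set with the highest mean of log2(signal + 16) over all arrays was used, and genes with a mean in the lowest 40% of probe sets, a signal of about 24.2, were left out. Groups were compared with limma 3.58.1 in R 4.3.3 (lmFit, eBayes with an intensity trend, two-sided, Benjamini-Hochberg, 0.05), and a second fit gave each probe set its own row. Fold changes on the log2(signal + 16) scale understate those of dim probe sets. The code was tested on simulated data. Promoters were searched with Python 3.11.15.

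Members and lists were chosen with earlier results of these data known. Named were all members with every probe set, all HIF subunits and regulators, and the genes of the other lists that passed. Other list genes with values were chosen for their role after values were seen. The alternatives were other filters, pseudocounts of 1 and 64, quantile normalisation, median centring, probe set averages, variance models, the parental tumour, pancreatic transcripts, a replicate block, a threshold of 0.1 and leaving out each array.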

Additional observations from a re-analysis of the deposited data

Results flagged for a closer look

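In each of the 19 probe sets the most distant of the 5 ALT arrays was compared with the others, as its gap to the nearest array divided by the range of the group, and 3 lay beyond 0.71, the 95% limit for 5 samples. Chance alone gives about 1 such case in 20 groups. Probe set 1423785_at of Egln1 read 717 in ALT 1 and 891 to 927 in the other ALT arrays (ratio 0.843). Probe set 1447839_x_at of Adm read 18.0 in ALT 4 and 41.3 to 53.7 in the others (ratio 0.728). Probe set 1423413_at of Ndrg1 read 8.63 in ALT 4 and 21.4 to 27.4 in the others (ratio 0.738). The other 4 Ndrg1 probe sets did not pass that limit, and neither did the other Egln1 and Adm probe sets.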

How the results depend on the processing

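The 2161 genes called became 982 with the replicate block, 837 within arrays without pancreatic transcripts, 334 within arrays with them, and 1152 to 2080 with single arrays left out, lowest without telomerase 1. The 4502 probe sets became 2437, 2145, 761 and 2616 to 4351 in the same order, again lowest without telomerase 1. Members called higher, 1 in the main setting, were 2 with the mean of all probe sets, with the parental array counted as telomerase and with the replicate block, 0 with the acinar sum as covariate and within either set of arrays, 3 at a threshold of 0.1, and 0 to 2 with single arrays left out. Members called lower, 3 in the main setting, were 2 within arrays without pancreatic transcripts and 2 to 3 with single arrays left out. Within arrays with them, which leave 1 telomerase array, no count of members called lower is given. There Ndrg1, P4ha2 and Car9 had log2 changes of -1.32, -1.49 and -0.72. Those sets hold 2 ALT and 2 telomerase arrays without pancreatic transcripts, and 3 ALT and 1 telomerase arrays with them. The tumour numbers in the labels were not treated as pairs, and the labels do not say whether they pair the groups. Arrays of the same number had correlations of deviations of -0.299, -0.396 and -0.571. In each such pair only 1 array carried pancreatic transcripts, so these values cannot decide whether the numbers are pairs. Ankrd37 passed with the parental tumour added (adjusted p = 0.0428), with the block (0.0411), without ALT 1 (0.0470) and without ALT 4 (0.0449), and P4ha1 passed with the parental tumour added (0.0403). Changes near 0 turned sign: Egln1 was at 0.34 with the mean of probe sets and at -0.0933 to 0.00134 with single arrays left out, for probe set 1423785_at too; Egln3 was at -0.0653 with the mean of probe sets, and it and probe set 1418649_at were at -0.00286 with the block, -0.0753 within arrays without pancreatic transcripts and -0.0563 to 0.162 with single arrays left out. Higd1a was at -0.0977 with the mean of probe sets. Probe set 1420909_at of Vegfa was at 0.0153 with the acinar covariate, 0.00334 within arrays with pancreatic transcripts and -0.288 to 0.0821 with single arrays left out, and 1450977_s_at of Ndrg1 at -0.172 to 0.0313. The cause of these shifts was not tested. Quantile normalisation gave 1114 higher and 1029 lower genes, against 923 and 1238.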
